A study of Mus musculus with 4 samples.

Results

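The genes of sterol synthesis and of surfactant fatty acid and phospholipid synthesis were followed in mouse lung RNA from animals that over-express IL-33 and from controls. They were chosen by gene name, 17 for a sterol arm governed mainly by the transcription factor SREBP2 and 17 for a fatty acid and phospholipid arm governed mainly by SREBP1. All 34 were found among the 43346 genes of the deposited count table, and all 34 were among the 20872 with enough counts to be tested. The 4 libraries were polyadenylated RNA from 2 IL-33 transgenic samples, B and E, and 2 control samples, D and F, 1 mouse being named in each title. IL-33 is an alarm cytokine stored in the nucleus of barrier cells and set free when they are injured. The strain, the age, the promoter that drives the transgene and the number of mice pooled, if any, are not stated in the labels, so the p-values rest on the spread between these libraries, which may be technical. The genotype label separates the groups, whereas the treatment label names transgenic mice for all 4 samples.

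The counts summed to between 76120696 and 87723745 per library. Il33 stood at 1723 counts per 1000000 counts (CPM) in B and 874 in E, against 117 in D and 108 in F, in the direction of the genotype labels. Il33 had the smallest p of all genes (edgeR log2 fold change 3.53 ± 0.37 SE, unadjusted p = 0.000206), yet its adjusted p was 1 by edgeR's quasi-likelihood test and 6.62e-26 by DESeq2. The labels call the material lung epithelial cells and the series title calls it lung tissue. Markers of alveolar type 2 cells, which make surfactant, were abundant, but those of other cells were present too: 8 of 8 endothelial and 8 of 8 fibroblast markers had counts in every library. Y-linked counts relative to D were 0.554% in B and 9.0% in E, against 47.5% in F. Xist, an RNA of female cells, stood at 698 CPM in B and 811 in E, against 1.19 in D and 356 in F. E and F thus had both Xist and Y-linked counts in quantity, as B and D did not. Whether E and F pooled several mice was not tested. The sexes were mixed unequally and in part with the genotype, and sex and genotype cannot be fully told apart. No pair of libraries was matched by the labels. Every pair differed beyond sampling noise (chi-square over genes divided by its degrees of freedom, at which noise alone gives about 1): the value was 128 for B with E and 75.7 for D with F, the pairs of 1 genotype, and the most alike pair was transgenic E with control F at 18.1.

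Cells make cholesterol from acetyl-CoA through mevalonate and squalene. When sterols in the endoplasmic reticulum fall, the escort protein SCAP carries SREBP precursors to the Golgi, where they are cut and freed to enter the nucleus, and INSIG proteins hold them back when sterols are plentiful. SREBP2 acts mainly on sterol genes and SREBP1 mainly on fatty acid genes, which also respond to insulin and to oxysterols through LXR. In alveolar type 2 cells the fatty acid branch supplies palmitate for dipalmitoyl phosphatidylcholine, the main lipid of surfactant.

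Promoter sequence was available from RefSeq (GRCm38.p6) for 25 of the 34 genes, as 32 windows of 250 bases before and 50 after a start site. Each window was searched on both strands for TCACNCCAC, the core of the sterol regulatory element that SREBP binds, for CCAAT, bound by the factor NF-Y, and for GGGCGG, the GC box bound by Sp1, both known partners of SREBP. TCACNCCAC was found in 1 of 13 sterol genes, Hmgcs1, and in 1 of 12 fatty acid genes, Pcyt1a, against 1.44% of all genes with a window. The other windows of the 2 arms do not hold these letters, which says nothing of whether SREBP binds there. CCAAT was in 13 of 13 sterol genes and in 7 of 12 fatty acid genes, against 41.1% of all genes with a window and 41.6% of those tested here. GGGCGG was in 13 of 13 sterol and 6 of 12 fatty acid genes, against 38.2% of all genes and 62.4% of those tested. A match is a description of the letters and not evidence of binding. The 250 bases before the start are shown for both holders of TCACNCCAC, 1 in each arm, and for Acoxl, the gene with the smallest p below, with matches to any of the 3 motifs in capitals on a lower-case sequence, 5′ to 3′. All 3 lie on the plus strand: Hmgcs1 at chr13:119690101-119690350, Pcyt1a at chr16:32430671-32430920 and Acoxl at chr2:127854378-127854627, none of them over an exon of the GENCODE M21 annotation.
Hmgcs1: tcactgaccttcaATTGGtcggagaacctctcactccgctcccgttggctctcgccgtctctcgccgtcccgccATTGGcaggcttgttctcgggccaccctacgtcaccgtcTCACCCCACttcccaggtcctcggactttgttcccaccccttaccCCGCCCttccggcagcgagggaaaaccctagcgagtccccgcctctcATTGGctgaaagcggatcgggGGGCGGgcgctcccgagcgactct
Pcyt1a: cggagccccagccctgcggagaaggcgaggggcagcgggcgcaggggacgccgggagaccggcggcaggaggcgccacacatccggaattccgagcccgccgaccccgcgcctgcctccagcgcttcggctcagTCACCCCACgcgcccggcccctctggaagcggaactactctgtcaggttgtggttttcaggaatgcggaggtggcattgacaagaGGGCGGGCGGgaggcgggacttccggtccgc
Acoxl: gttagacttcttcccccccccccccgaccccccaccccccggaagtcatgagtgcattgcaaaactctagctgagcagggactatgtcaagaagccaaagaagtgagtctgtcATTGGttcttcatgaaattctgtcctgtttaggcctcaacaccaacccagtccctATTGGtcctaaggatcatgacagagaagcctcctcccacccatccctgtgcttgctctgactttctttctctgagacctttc
In Hmgcs1 the sterol element TCACCCCAC begins 137 bases before the start, between CCAAT matches read on the minus strand (ATTGG). In Pcyt1a the same 9 letters begin 116 bases before the start, with 2 overlapping GC boxes nearer to it and no CCAAT. The Acoxl window has 2 CCAAT matches on the minus strand, and its start lies 15752 bases inside the gene as the count table bounds it, since RefSeq places the start later.

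Per length, the fatty acid arm held the more abundant genes. Levels between genes are given as the deposited RPKM (reads per kilobase and per 1000000 reads), averaged over the 4 libraries with the SD over them. The arm was headed by Lpcat1, which adds palmitate to lysophosphatidylcholine and so makes the surfactant lipid, at 217 ± 33.7 RPKM. The desaturase genes followed with 145 ± 10.5 RPKM for Scd2 and 132 ± 14.8 for Scd1, whose ranges over the libraries overlapped. Fasn, the fatty acid synthase, came next at 72.7 ± 7.08 RPKM. Elovl1 (59.8 ± 3.14 RPKM), Elovl5 (58.0 ± 1.95) and the ATP citrate lyase gene Acly (54.7 ± 4.09) formed a group in which neighbours overlapped. At the low end stood the phosphatidate phosphatase gene Lpin1 at 3.43 ± 0.37 RPKM, the diacylglycerol acyltransferase gene Dgat2 at 2.18 ± 0.45 and the elongase gene Elovl6 at 0.97 ± 0.16.

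The sterol arm was flatter. Hmgcs1, which encodes the HMG-CoA synthase of the pathway, was highest at 45.9 ± 2.88 RPKM. Insig1 (32.1 ± 3.36 RPKM) and Srebf2 (31.5 ± 0.91), whose ranges overlapped, came next, and then the sterol carrier gene Stard4 (23.4 ± 2.01). The enzyme genes after Hmgcs1 ran without a wide gap from Idi1 at 15.2 ± 2.06 RPKM to Lss at 2.93 ± 0.34. Of the 16 pairs of neighbours in the order of levels, 12 overlapped over the libraries in the sterol arm and 7 in the fatty acid arm. The median gene stood at 8.58 RPKM in the sterol arm and 24.4 in the fatty acid arm. The length used is a gene model with UTRs, although its column is headed a coding length, so an unused long isoform lowers a gene's RPKM.

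**Figure D1:**
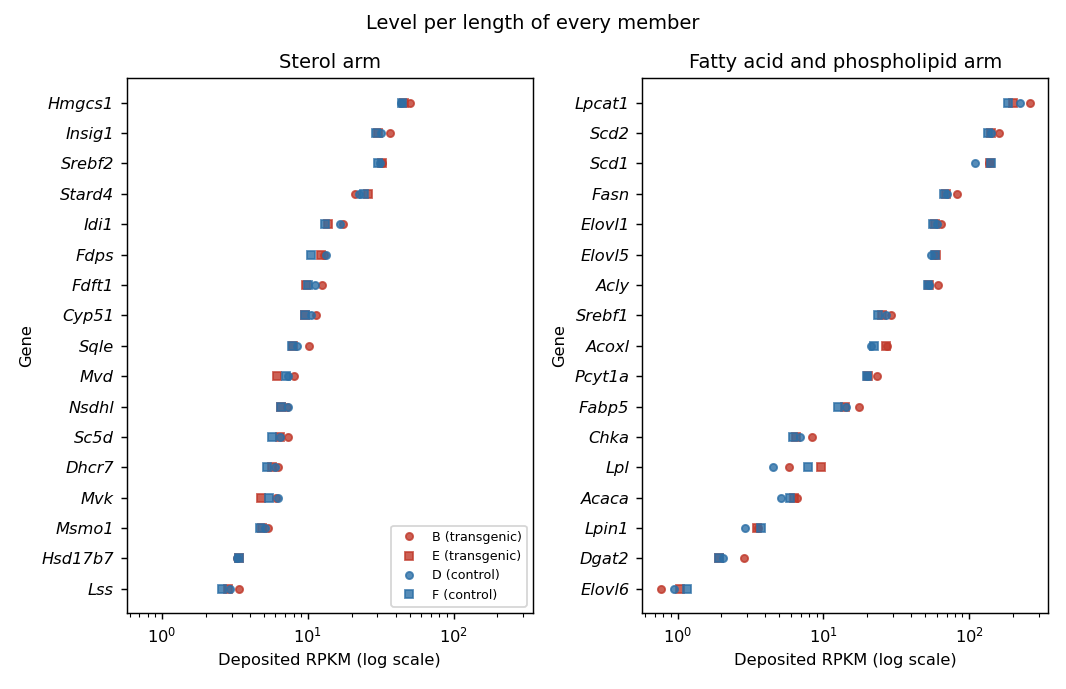
Deposited RPKM of each gene on a log axis, sterol arm on the left and fatty acid and phospholipid arm on the right, with 1 point per library (transgenic B and E in red, control D and F in blue). Lpcat1 leads at 217 RPKM on average and Elovl6 is lowest at 0.97, and red and blue points overlap for most genes.

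Between transgenic and control libraries no gene of either arm passed the test. edgeR's quasi-likelihood test over all 20872 genes found 0 genes higher and 0 genes lower (adjusted p, threshold 0.05), a background of 0% in each direction, and so 0 of the 34. The smallest adjusted p among the 34 was 1, and DESeq2 called 0 of the 34 as well (smallest adjusted p 1) and 1 gene overall (0.00479%), Il33. Since edgeR did not call Il33 either, the lack of a call does not show that a gene did not differ. At an unadjusted p under 0.05 there was 1 of the 34, Acoxl, higher in transgenic libraries, where the background was 0.896% higher and 0.393% lower. In bulk RNA, fewer cells of a type and less RNA per cell cannot be told apart. The 95% intervals of the fold changes, which are not adjusted for the number of genes, lay within 1.5-fold either way for 17 of 17 sterol genes and 11 of 17 fatty acid genes. Within 2-fold lay 33 of 34, the exception being Lpl.

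The values leaned upward in both arms without passing the test. The log2 fold change was above 0 for 12 of 17 sterol genes (median 0.059) and 16 of 17 fatty acid genes (median 0.13), against 49.6% of all genes tested (median -0.0013). Both transgenic values exceeded both control values for 0 sterol and 3 fatty acid genes, against 11.9% of all genes, and below both for 1 sterol and 0 fatty acid genes, against 12%. Of the 34 the share was thus near or under the background in each direction. The lean rested on library B: without it the median was -0.033 in the sterol arm, with 5 of 17 genes above 0, and -0.0095 in the fatty acid arm, with 8 of 17. When the share of Y-linked counts entered the fit as a covariate, the medians were 0.23 in the sterol arm (15 of 17 above 0) and 0.21 in the fatty acid arm (12 of 17), so that the order of the arms turned. Without control library F the sterol median was -0.022, with 7 of 17 above 0, and the fatty acid median was 0.083.

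**Figure D2:**
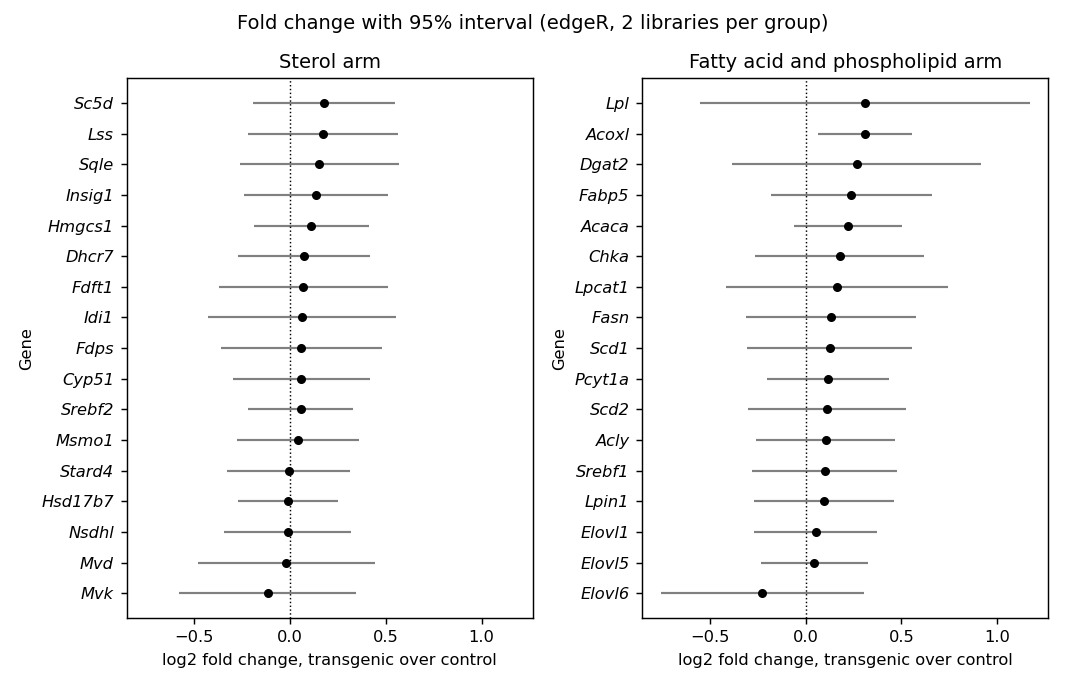
log2 fold change of each gene, transgenic over control, from edgeR's quasi-likelihood fit on 2 libraries per group, with bars for the 95% interval and genes ordered by fold change. Every interval crosses 0 except that of Acoxl (0.065 to 0.56), and that of Lpl is the widest (-0.55 to 1.17).

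Each library's place was then read from the median over an arm of log2 CPM minus the gene's own mean over the 4 libraries. In the sterol arm this median was 0.15 in B and -0.075 in E, against 0.056 in D and -0.11 in F. In the fatty acid arm it was 0.18 in B and -0.062 in E, against -0.013 in D and -0.10 in F. In both arms B lay above both controls and E between them, so the groups overlapped. The group means of these medians were 0.037 ± 0.16 in transgenic and -0.027 ± 0.12 in control libraries for the sterol arm, and 0.057 ± 0.17 in transgenic and -0.056 ± 0.062 in control libraries for the fatty acid arm (SD, n = 2 each), differences smaller than the SD of the transgenic libraries. The arms moved together across libraries. The fatty acid median minus the sterol median was 0.027 in B and 0.013 in E, against -0.069 in D and 0.0098 in F, so that the arms parted most in control library D, where the fatty acid arm was lower.

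Pairs of libraries showed the same. B lay above F for 15 of 17 sterol and 13 of 17 fatty acid genes (median log2 ratios 0.28 and 0.26), and above D for 12 and 16 of 17 (0.068 and 0.23). Library E lay above F for 11 and 13 of 17 (0.035 and 0.038), but above D for only 1 of 17 sterol genes and 7 of 17 fatty acid genes (-0.13 and -0.060). Among all genes tested, B lay above F for 50.5% and above D for 49.5%, and E lay above F for 48.2% and above D for 50.6%. Of the sterol genes 12 were highest in B and 10 lowest in F, and of the fatty acid genes 13 were highest in B and 9 lowest in F. Over all genes tested B was the highest library for 33.7% and F the lowest for 24.0%.

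The alveolar type 2 markers stood in the same library order. The median of the 12 markers, all with counts in every library, was 0.33 in B and -0.11 in E, against 0.043 in D and -0.28 in F, and their summed level was 64602 CPM in B and 42936 in E, against 53196 in D and 38953 in F. The order B, D, E, F was taken from the medians of these 12 markers. It held for 9 of 17 sterol genes and 9 of 17 fatty acid genes, against 10.1% of all genes tested. Its presence in 11 of the 12 markers follows largely from that choice. The split of B and D above E and F was not particular to type 2 markers. The alveolar type 1 median was 0.41 in B and -0.30 in E, against 0.43 in D and -0.54 in F. The club median was 0.30 in B and -0.24 in E, against 0.11 in D and -0.15 in F. Ciliated markers did not share it, at 0.22 in B and -0.21 in E, against -0.20 in D and 0.094 in F. The span over the libraries was 0.61 for the type 2 marker median, against 0.26 for the sterol and 0.28 for the fatty acid median. Endothelial markers ran the other way, at a summed 4883 CPM in B and 7856 in E, against 6260 in D and 8650 in F, as did fibroblast markers at 950.1 CPM in B and 2238 in E, against 1609 in D and 2600.0 in F. Leukocyte markers had a larger sum in both transgenic libraries, with 65.0 CPM in B and 81.9 in E, against 45.5 in D and 47.4 in F. All 8 had counts in every library and a log2 fold change above 0 (median 1.01). Of these, 5 were higher without overlap, against 11.9% of all genes, although 0 passed the test (edgeR quasi-likelihood, adjusted p). Some were near the floor, such as Cd3e at 0.56 CPM in B and 0.80 in E, against 0.36 in D and 0.55 in F. The part of cell composition in the values of either arm was not tested.

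**Figure D3:**
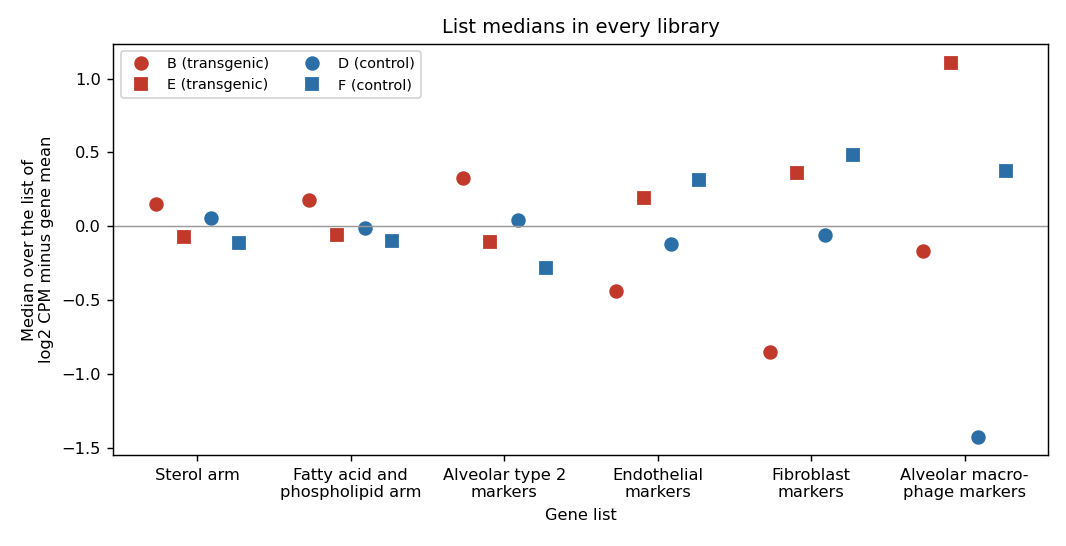
Median over each gene list of log2 CPM minus the gene mean, with 1 point per library (transgenic B and E in red, control D and F in blue). Both arms and the alveolar type 2 markers are highest in B and lowest in F (0.33 and -0.28 for the markers), while endothelial and fibroblast markers are lowest in B and highest in F.

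In the sterol arm, the genes of the mevalonate segment did not separate the groups. Hmgcs1 stood at 201 CPM in B and 176 in E, against 177 in D and 173 in F. Mvk, which phosphorylates mevalonate, stood at 20.01 CPM in B and 15.3 in E, against 20.7 in D and 17.5 in F. Mvd, which encodes the decarboxylase that yields isopentenyl diphosphate, stood at 17.7 CPM in B and 13.1 in E, against 16.1 in D and 15.1 in F. In all 3 genes library B exceeded E, and for Mvk and Mvd library E was the lowest of all. Idi1, the isomerase gene, had 75.9 CPM in B and 58.1 in E, against 72.4 in D and 56.04 in F, with B and D high and E and F low. Fdps, the farnesyl diphosphate synthase gene, had 19.8 CPM in B and 18.3 in E, against 20.7 in D and 15.9 in F, and F was the lowest. Mvk had the lowest log2 fold change of the arm (edgeR log2 fold change -0.12 ± 0.18 SE, 95% interval -0.58 to 0.34).

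The genes from squalene to lanosterol had their highest value in B. Fdft1, which encodes squalene synthase, stood at 44.6 CPM in B and 33.6 in E, against 39.8 in D and 34.6 in F. Sqle, the squalene epoxidase gene and a point of control of the pathway, stood at 69.97 CPM in B and 53.03 in E, against 58.1 in D and 52.5 in F, or 61.5 ± 11.98 CPM on average in transgenic samples and 55.3 ± 3.92 CPM in controls (SD, n = 2 each). Lss, the lanosterol synthase gene, stood at 45.5 CPM in B and 36.7 in E, against 39.4 in D and 33.6 in F, or 41.1 ± 6.21 CPM on average in transgenic samples and 36.5 ± 4.13 CPM in controls (SD, n = 2 each). B was the highest library for all 3 genes and stood well apart for Sqle, while transgenic library E was the lowest for Fdft1 and lay between the controls for Sqle and Lss. The fold changes were among the largest of the arm for Lss (edgeR log2 fold change 0.17 ± 0.15 SE, 95% interval -0.22 to 0.56) and Sqle (edgeR log2 fold change 0.15 ± 0.16 SE, 95% interval -0.26 to 0.57), and for both genes the SD of the transgenic libraries exceeded the difference of the means. In the GENCODE M21 annotation 12 of the 34 genes share exon bases with another gene, 3 of them by more than 10%. These are Fdft1 (18.3%, with Ctsb on the other strand), Fdps (26.7%, with a predicted gene on its own strand) and Hmgcs1 (12.1%, with one on the other). The counted models of these 3 were shorter than in M21, as for Fdps with 1241 bases against 4208. The share of the counted bases was not tested, and reads may be divided between the genes.

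The later enzymes, which turn lanosterol into cholesterol, varied little for the most part. Cyp51, the lanosterol demethylase gene, had 60.7 CPM in B and 49.7 in E, against 56.05 in D and 49.98 in F. Msmo1, the methylsterol oxidase gene, had 40.7 CPM in B and 35.6 in E, against 39.3 in D and 34.7 in F. Nsdhl, an X-linked gene for the sterol dehydrogenase that follows, had 25.6 CPM in B and 22.6 in E, against 25.9 in D and 22.7 in F. These 3 genes were higher in B and D than in E and F, whatever the genotype. Hsd17b7 (chromosome 1, 169949535 to 169969241, GRCm38), the ketosteroid reductase gene, was nearly level, at 20.6 CPM in B and 20.8 in E, against 20.8 in D and 20.9 in F. Its 2 transgenic values lay under both controls, but by so little that the highest library was 1.015 times the lowest (edgeR log2 fold change -0.012 ± 0.10 SE, 95% interval -0.27 to 0.25). Sc5d, the sterol desaturase gene, had 21.2 CPM in B and 18.04 in E, against 18.6 in D and 16.1 in F and the largest log2 fold change of the arm (edgeR log2 fold change 0.18 ± 0.14 SE, 95% interval -0.20 to 0.55), at 19.6 ± 2.26 CPM on average in transgenic samples and 17.4 ± 1.77 CPM in controls (SD, n = 2 each). Transgenic library E lay between the controls, and without B the log2 fold change of Sc5d was 0.054. Dhcr7, which encodes the reductase that ends one route to cholesterol, had 29.4 CPM in B and 25.8 in E, against 28.3 in D and 24.2 in F, again with E between D and F.

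Of the regulators, Srebf2, the gene of SREBP2 itself, was steady at 201 CPM in B and 193 in E, against 195 in D and 183 in F (edgeR log2 fold change 0.056 ± 0.11 SE, 95% interval -0.22 to 0.33). Insig1, a target of SREBP that retains SCAP in the endoplasmic reticulum, stood at 124 CPM in B and 98.9 in E, against 107 in D and 95.5 in F. Its order, with B high and F low, was the most common of the arm. Stard4, which carries sterol between membranes, went the other way, at 147 CPM in B and 173 in E, against 157 in D and 165 in F, with B the lowest and E the highest (edgeR log2 fold change -0.0076 ± 0.12 SE). The direction of all these genes but Srebf2 turned when 1 library was left out.

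**Figure D4:**
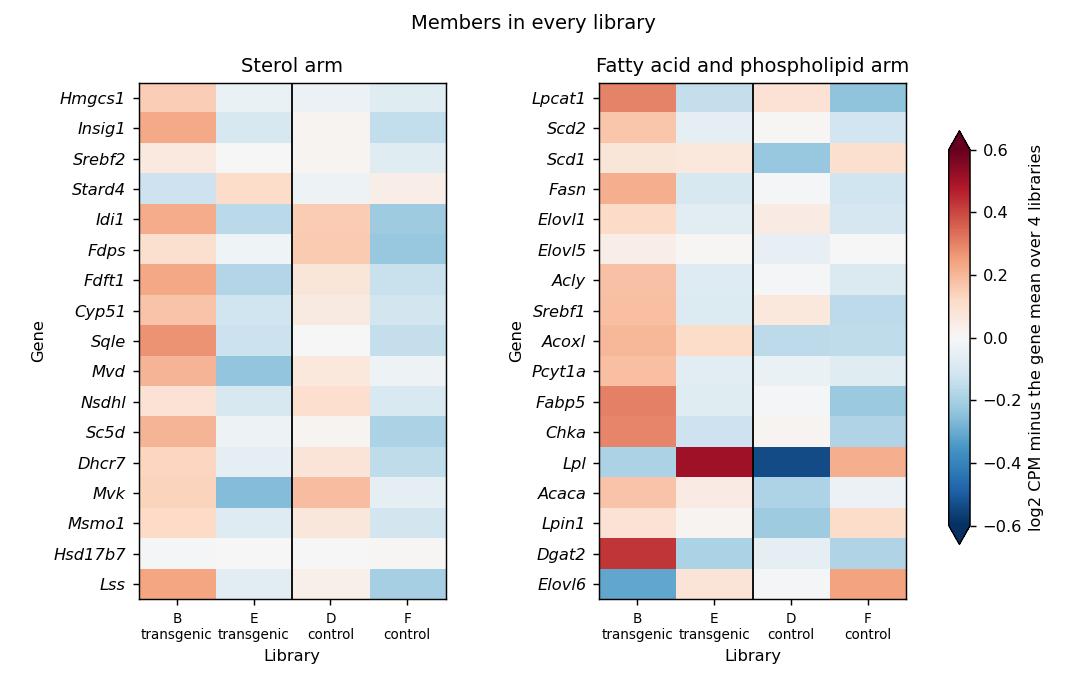
log2 CPM of each gene minus its mean over the 4 libraries, as colour (red above the mean, blue below), with the sterol arm on the left, the fatty acid and phospholipid arm on the right, and transgenic libraries B and E left of control libraries D and F. B is the reddest library in most rows, and Lpl is highest in E (79.4 CPM) and lowest in D (38.5 CPM).

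Among the enzymes that build fatty acids, Acly, which makes cytosolic acetyl-CoA from citrate, stood at 399 CPM in B and 335 in E, against 350.4 in D and 333 in F. Acaca (chromosome 11, 84129672 to 84401651, GRCm38), the acetyl-CoA carboxylase that commits carbon to fatty acids, stood at 125 CPM in B and 115 in E, against 97.5 in D and 108 in F. Both transgenic values of Acaca lay above both controls, by a narrow gap between E and F (edgeR log2 fold change 0.22 ± 0.11 SE, 95% interval -0.062 to 0.51; unadjusted p = 0.101, edgeR quasi-likelihood), and the means were 119.9 ± 7.33 CPM on average in transgenic samples and 103 ± 7.51 CPM in controls (SD, n = 2 each). Fasn stood at 1018 CPM in B and 819.7 in E, against 871 in D and 807 in F, with B alone apart. For Acly and Fasn, library E lay between the controls, within the spread of that group. Srebf1, the gene of SREBP1, stood at 205 CPM in B and 171 in E, against 189 in D and 162 in F, the same order as Fasn and Acly (edgeR log2 fold change 0.099 ± 0.15 SE, 95% interval -0.28 to 0.48).

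The desaturases differed from each other in their low library. Scd2 had 1081 CPM in B and 929 in E, against 969 in D and 889 in F. Scd1 had 819 CPM in B and 813 in E, against 665 in D and 831 in F, so that 3 libraries were close and control D was low. The fold changes were edgeR log2 fold change 0.13 ± 0.17 SE for Scd1 and edgeR log2 fold change 0.11 ± 0.16 SE for Scd2. Both encode stearoyl-CoA desaturases that make monounsaturated fatty acids, and since they are related genes on chromosome 19 and it is not stated how reads matching both were counted, some reads may be divided between them.

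The elongases spread over both directions. Elovl1, which extends saturated chains to very long ones, had 216 CPM in B and 191 in E, against 206 in D and 186 in F. Elovl5 (chromosome 9, 77917364 to 77984519, GRCm38), which extends polyunsaturated chains, had 257 CPM in B and 251 in E, against 242 in D and 250.3 in F. Its transgenic values lay above the controls, but E exceeded F by a narrow margin and the highest library was 1.06 times the lowest (edgeR log2 fold change 0.047 ± 0.11 SE, 95% interval -0.23 to 0.32). Elovl6, which turns palmitate into stearate and so draws on the chain that surfactant needs, had 5.67 CPM in B and 7.41 in E, against 6.99 in D and 8.31 in F. It was the 1 gene of the arm with a log2 fold change under 0 (edgeR log2 fold change -0.23 ± 0.21 SE, 95% interval -0.76 to 0.31), and its library order F, E, D, B was that of the endothelial and fibroblast medians.

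The phosphatidylcholine genes Chka, Pcyt1a and Lpcat1 had the library order of the type 2 markers, as had 9 of the 17 genes of the arm. Chka, the choline kinase gene, had 126 CPM in B and 94.3 in E, against 104 in D and 90.7 in F. Pcyt1a, the gene of the enzyme that activates phosphocholine and sets the rate of the route, had 166 CPM in B and 139.9 in E, against 142 in D and 139 in F. Lpcat1 had 1342 CPM in B and 989 in E, against 1157 in D and 921 in F. All 3 had the order B, D, E, F, so that E lay between the controls. B stood apart for Chka and Pcyt1a, with D, E and F nearly level for Pcyt1a, while for Lpcat1 both B and D were high. Their log2 fold changes were 0.18 ± 0.17 for Chka, 0.12 ± 0.12 for Pcyt1a and 0.17 ± 0.23 for Lpcat1 (± SE). Lpin1, whose product makes diacylglycerol, had 25.4 CPM in B and 24.2 in E, against 20.7 in D and 25.8 in F, with D alone low. Dgat2, which turns diacylglycerol into storage fat, had 7.99 CPM in B and 5.202 in E, against 5.72 in D and 5.24 in F, with B alone high (edgeR log2 fold change 0.27 ± 0.25 SE, 95% interval -0.38 to 0.92), and means of 6.598 ± 1.98 CPM on average in transgenic samples and 5.48 ± 0.343 CPM in controls (SD, n = 2 each).

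Acoxl (chromosome 2, 127838876 to 128123873, GRCm38; ENSMUSG00000027380), an acyl-CoA oxidase-like gene, was the gene in which the groups stood clearest apart. It had 109 CPM in B and 102 in E, against 84.7 in D and 85.2 in F, so that the transgenic libraries were close to each other, as were the controls, and the gap between the groups was wider than either spread. The means were 105 ± 4.69 CPM on average in transgenic samples and 84.9 ± 0.313 CPM in controls (SD, n = 2 each) (edgeR log2 fold change 0.31 ± 0.095 SE, 95% interval 0.065 to 0.56). Its unadjusted p was 0.0225 and its adjusted p over all genes 1 (edgeR quasi-likelihood), and without any 1 library the log2 fold change ran from 0.27 to 0.35. Of the 34 genes it had the smallest p.

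The genes of lipid uptake and carriage did not share 1 pattern. Fabp5, a fatty acid binding protein gene, had 78.3 CPM in B and 60.4 in E, against 63.2 in D and 54.4 in F (edgeR log2 fold change 0.24 ± 0.16 SE), B alone being high, and without B the log2 fold change of Fabp5 was 0.039. Lpl, which encodes the lipase that frees fatty acids from lipoproteins, had 48.9 CPM in B and 79.4 in E, against 38.5 in D and 64.96 in F, a ratio of 2.06 between the highest and lowest library and the widest of the 34. Its means were 64.1 ± 21.6 CPM on average in transgenic samples and 51.7 ± 18.7 CPM in controls (SD, n = 2 each) (edgeR log2 fold change 0.31 ± 0.34 SE, 95% interval -0.55 to 1.17), and the groups overlapped since control F exceeded transgenic B. Alveolar macrophages express Lpl, and the median of their markers had the same library order. It was -0.17 in B and 1.11 in E, against -1.42 in D and 0.38 in F. Of 11 markers 10 were found, none at 0. Their sum was 208 CPM in B and 382 in E, against 205 in D and 368 in F. Much of that sum was Car4, at 104 CPM in B and 185 in E, against 147 in D and 226 in F. Car4 and Fabp4 were lowest in B and highest in F, with log2 fold changes under 0 (-0.37 and -0.12). Ear2 and Plet1 also departed from the order of Lpl, and 8 of the 10 had a log2 fold change above 0. The part of alveolar macrophages in the Lpl values was not tested. Adipocyte markers were scarce, with 2 of 7 tested and Lep, Cfd and Adipoq at 0 in at least 1 library.

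Other genes of the same pathways, listed by function, were set beside the 2 arms, and 0 of them passed the test in either direction (edgeR quasi-likelihood, adjusted p). Of 18 other sterol genes 14 lay above 0 on the log2 scale (median 0.060), and the groups did not overlap for 5 higher and 1 lower, against 11.9% and 12% of all genes. Among the higher, the sterol esterification gene Soat1 had 203 CPM in B and 168 in E, against 167 in D and 149.8 in F (edgeR log2 fold change 0.23 ± 0.14 SE). The lysosomal cholesterol export gene Npc1 had 126 CPM in B and 121 in E, against 116 in D and 116 in F (edgeR log2 fold change 0.087 ± 0.095 SE). The sterol reductase and nuclear envelope gene Lbr had 117 CPM in B and 114 in E, against 112 in D and 108 in F (edgeR log2 fold change 0.077 ± 0.094 SE). For these genes the gap between E and the higher control was small against the spread within a group or of its size, and without B the log2 fold change of Soat1 was 0.084. Of 10 efflux and LXR genes 3 were above 0 (median -0.082), with 1 higher and 2 lower without overlap (all genes: 11.9% and 12%). The higher gene was Apoe, which encodes a lipoprotein that carries cholesterol, at 75.6 CPM in B and 71.9 in E, against 66.5 in D and 65.9 in F (edgeR log2 fold change 0.16 ± 0.093 SE), and its gap between the groups was wider than the spread within either. Lower were Nr1h2, the gene of LXR beta, at 66.4 CPM in B and 67.8 in E, against 73.6 in D and 69.7 in F (edgeR log2 fold change -0.095 ± 0.094 SE), and the plasma cholesterol esterification gene Lcat, which was scarce, at 0.463 CPM in B and 0.654 in E, against 0.906 in D and 0.8100 in F (edgeR log2 fold change -0.61 ± 0.32 SE).

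Of 22 other fatty acid genes tested 15 were above 0 (median 0.081), with 2 higher and 0 lower without overlap (all genes: 11.9% and 12%). These were the acyl-CoA synthetase gene Acsl4, at 557 CPM in B and 396 in E, against 388 in D and 345 in F (edgeR log2 fold change 0.38 ± 0.20 SE), and Mid1ip1, which encodes an activator of acetyl-CoA carboxylase, at 224 CPM in B and 189 in E, against 189 in D and 171 in F (edgeR log2 fold change 0.20 ± 0.13 SE). In both, B was far above E, and E was close to D. Without B the log2 fold change was 0.11 for Acsl4 and 0.073 for Mid1ip1. Of 25 other phospholipid and glyceride genes 15 were above 0 (median 0.081), with 3 higher and 4 lower without overlap (all genes: 11.9% and 12%). The lowest p belonged to the acyltransferase gene Agpat4, at 27.4 CPM in B and 31.3 in E, against 33.6 in D and 35.6 in F (edgeR log2 fold change -0.24 ± 0.11 SE), and the lipid droplet coat gene Plin2 stood at 72.3 CPM in B and 73.7 in E, against 60.8 in D and 67.3 in F (edgeR log2 fold change 0.19 ± 0.10 SE). Lpin2, a relative of Lpin1, had 97.7 CPM in B and 93.5 in E, against 85.3 in D and 87.2 in F (edgeR log2 fold change 0.15 ± 0.093 SE). Pemt, which makes phosphatidylcholine by methylation, had 1.59 CPM in B and 1.72 in E, against 1.303 in D and 1.35 in F (edgeR log2 fold change 0.32 ± 0.23 SE). None of these 4 differences passed the test.

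Of 19 fatty acid oxidation and PPAR genes 12 were above 0 (median 0.026), with 3 higher and 1 lower without overlap (all genes: 11.9% and 12%). Pparg, a nuclear receptor gene of lipid handling that alveolar macrophages depend on, stood at 7.07 CPM in B and 7.92 in E, against 4.11 in D and 5.76 in F (edgeR log2 fold change 0.60 ± 0.22 SE; unadjusted p = 0.0431, edgeR quasi-likelihood). The fatty acid transport gene Slc27a1 (edgeR log2 fold change 0.17 ± 0.13 SE) and the peroxisomal gene Ehhadh (edgeR log2 fold change 0.20 ± 0.18 SE) were the other genes with higher values in both transgenic libraries, and the mitochondrial gene Hadhb (edgeR log2 fold change -0.063 ± 0.095 SE) was the 1 with lower values. Without B the log2 fold change was 0.033 for Slc27a1 and 0.013 for Ehhadh. The median of the alveolar macrophage markers given with Lpl was also higher in E than in B and lowest in D. That median was higher in F (0.38) than in B (-0.17), however, whereas Pparg was higher in B than in F. The part of these cells in the Pparg values was not tested.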

How the data were processed

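The table deposited by the authors gives for every gene the count of its reads in each library, as raw whole numbers, with an RPKM value from the authors next to it, per the file headers. The submitters' processing notes name featureCounts, TopHat2 and Bowtie, with the builds mm10 and GRCm38. The annotation release, strand setting and handling of multiply matching reads are not given there. The deposited RPKM values, which imply library totals above the summed gene counts (80.3% to 82.7% of those totals), only ordered genes by level.

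Genes were kept by filterByExpr (counts of 10, total of 15), scaled by TMM and tested with edgeR 4.0.16 (R 4.3.3, quasi-likelihood, no covariate, 2 libraries a group), with p adjusted by Benjamini-Hochberg over 20872 genes at 0.05. An SE is the absolute log2 fold change over the root of the F statistic, and CPM uses the TMM-scaled library sizes, with 0.01 CPM added for centring. The fit was checked on simulated counts with the same set spread for every gene. That check does not show which changes could be detected in these libraries. Alternatives were other scalings, filters and fits, DESeq2 1.42.0, each library left out and the Y-linked share as a covariate.

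All 34 members are named, with full statistics where the groups do not overlap and for the 3 largest fold changes of each arm. From each other list, the genes named are those whose groups do not overlap, at most 4, smallest p first, except a gene that is not reported here. Lists are described by counts and medians, with no test over a list. The members and lists were chosen with earlier results of these data known.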

Additional observations from a re-analysis of the deposited data

How the results depend on the processing

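With DESeq2 or upper-quartile factors, no filter, the stricter filter (1 CPM in 2 libraries and a total of 20) or DESeq2 as the test, the 34 fold changes kept their direction and 0 of the 34 were called, and the arms' medians and counts above 0 moved by less than the spread between libraries. Scalings added after the data were seen left the counts of genes without overlap as they were. DESeq2 called 1 gene higher over all genes, Il33. When the Y-linked share was a covariate the sterol median was 0.23 and the fatty acid median 0.21, and 0 genes were called. That fit cannot separate sex from genotype here.

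Leaving out 1 library mattered more. Over the 4 such fits, genes called higher ran from 0 to 5 and lower from 0 to 12, with 0 of the 34 among them. The sterol median ran from -0.033 to 0.18 (5 to 15 genes above 0) and the fatty acid median from -0.0095 to 0.22 (8 to 15). Directions turned for 23 of 34 genes, whose log2 fold changes ran as follows: Sqle (-0.060 to 0.33), Insig1 (-0.033 to 0.28), Idi1 (-0.14 to 0.26), Fdps (-0.12 to 0.26), Fdft1 (-0.15 to 0.25), Cyp51 (-0.094 to 0.19), Mvd (-0.25 to 0.18), Mvk (-0.33 to 0.055), Dhcr7 (-0.037 to 0.19), Msmo1 (-0.057 to 0.13), Nsdhl (-0.11 to 0.087), Stard4 (-0.14 to 0.11), Srebf1 (-0.036 to 0.21), Fasn (-0.033 to 0.27), Acly (-0.026 to 0.22), Scd1 (-0.026 to 0.30), Elovl1 (-0.037 to 0.13), Lpcat1 (-0.072 to 0.36), Lpin1 (-0.056 to 0.26), Pcyt1a (-0.0095 to 0.23), Chka (-0.045 to 0.36), Dgat2 (-0.074 to 0.54) and Lpl (-0.089 to 0.74). The other 11 kept their direction: Hmgcs1 (0.013 to 0.19), Lss (0.0096 to 0.31), Sc5d (0.054 to 0.28), Hsd17b7 (-0.028 to -0.0051), Srebf2 (0.010 to 0.10), Acaca (0.15 to 0.30), Scd2 (0.00036 to 0.21), Elovl5 (0.024 to 0.070), Elovl6 (-0.44 to -0.044), Fabp5 (0.039 to 0.40) and Acoxl (0.27 to 0.35). The cause was not tested. With 1 library left in a group it is assumed to vary like the other. No paired analysis was possible because the labels carry no replicate numbers and the libraries were numbered only in accession order.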
